A study of Mus musculus with 2 samples.

Results

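Among 16943 autosomal regions of 2500 bp with 10 to 19 CpGs measured in both libraries, 449 were at least 40 percentage points more methylated in *Rex1*-low cells than in *Rex1*-high cells. The data comprised 1 reduced representation bisulfite sequencing (RRBS) library of *Rex1*-high cells and 1 of *Rex1*-low cells. Both populations were sorted from the same Rex1-dGFP knockin reporter line, which is an E14 mouse embryonic stem cell (ESC) line of 129/Ola background grown on gelatin with LIF and serum. A cell's state was read from a GFP reporter at the *Rex1* locus, so each library is an average over the cells that fell into a GFP gate. The *Rex1*-high library held 60718476 methylation calls and the *Rex1*-low library held 61024229, where a call is a cytosine of a CpG read as methylated or unmethylated. The 449 regions were selected on the measured difference itself. Their levels and gains are therefore given as a description without a test, and a single library for each state leaves the difference without a replicate check.

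In mammals, DNA methylation is found mainly on the cytosine of CpG dinucleotides, where de novo methyltransferases such as Dnmt3a and Dnmt3b place it, Dnmt1 copies it to the new strand at replication, and Tet enzymes start its removal by oxidation. Dense CpG islands at promoters are mostly unmethylated, whereas sequence with few CpGs is mostly methylated in cells grown in serum. The regions described here were chosen by their number of measured CpGs, and RRBS covers them because MspI and TaqI cut at sites that contain a CpG. This number depends on coverage as well as on the sequence, whose own CpG number was not determined. Below, dense and sparse regions are those with many or few measured CpGs. The submitters' processing notes name the mm9 build for the positions below. The gene and promoter tables used here are of GRCm38, so that no gene and no sequence was assigned to a region.

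The methylation level of a region was the mean of its CpGs, each with at least 5 calls on a line of the deposited values in both libraries. The 449 regions had a median level of 40.7% in *Rex1*-high cells, with quartiles of 34.5% and 46.0% and extremes of 19.3% and 56.7%. In the *Rex1*-low library their median was 84.0%, with quartiles of 78.7% and 88.4% and extremes of 59.7% and 97.2%. The regions thus moved from an intermediate to a high level, and none reached full methylation. The median gain was 42.5 points and the upper quartile was 44.7 points, which places most regions close to the threshold, and 17 regions gained 50 points or more. The share of all regions with 10 to 19 CpGs past the threshold was 2.65%, and the median gain of the other 16494 regions was 22.6 points. Just inside the threshold lay chr17:9067501-9070000, which went from 50.7% to 90.7%, a gain of 40.03 points. The next regions inside, chr11:33652501-33655000 and chr10:127187501-127190000, gained 40.03 and 40.05 points. Just outside were chr12:103685001-103687500 with 39.99 points, chr4:69070001-69072500 with 39.98 points and chr15:73257501-73260000 with 39.98 points.

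**Figure D1:**
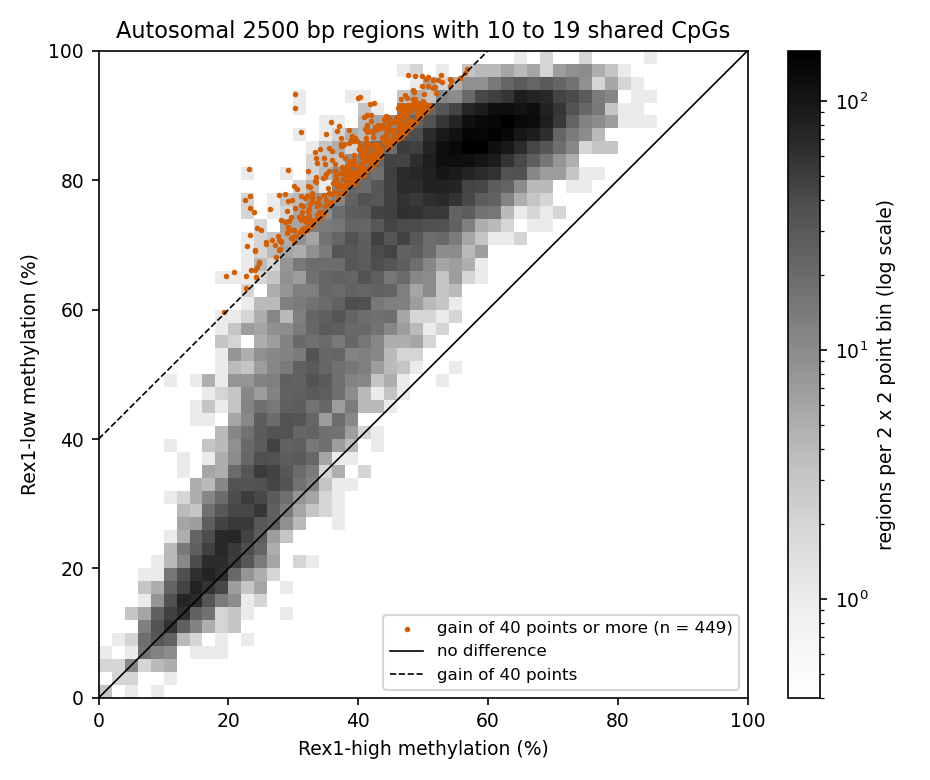
Methylation of autosomal regions with 10 to 19 shared CpGs, in percent, in the Rex1-high library (horizontal axis) and the Rex1-low library (vertical axis). Grey shades count regions per bin on a log scale, orange points are the 449 regions, and the lines mark no difference and a gain of 40 points. The orange points form the upper left edge of a continuous cloud, at Rex1-high levels from 19.3% to 56.7%.

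A region above 60% in *Rex1*-high cells could not pass the threshold, and below that level the share of regions past it differed with the level. The 449 regions, here called members, made up 7.88% of the 2703 regions from 40% to 50% in *Rex1*-high cells and 7.21% of the 2190 regions from 30% to 40%. Only 2 of 2010 regions under 20% passed, and the share was 2.07% at 20% to 30% and 0.695% at 50% to 60%. Their share fell with the number of measured CpGs, from 3.27% of regions with 10 or 11 CpGs to 0.994% of those with 17 to 19. It also moved with depth. Of the 4280 regions with at most 222 calls in the shallower library, 4.67% were members, against 1.14% of the 4224 regions with at least 407 calls. The 449 regions had medians of 322 *Rex1*-high and 247 *Rex1*-low calls, against 363 and 322 in the other regions, and the part of depth in the selection was not tested. Their 95% Wilson intervals had median half-widths of 5.30 points in *Rex1*-high cells and 4.41 points in *Rex1*-low cells. Counting error is all that such an interval covers, because calls of the same read, or of PCR copies of a molecule, are not independent.

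The measured CpGs of a member were packed closely. From the first to the last they spanned a median of 669 bp of the 2500 bp, with quartiles of 336 and 1287 bp, against a median of 994 bp in the other regions. When CpGs over 100 bp apart were put into separate blocks, 93 of the 449 regions (20.7%) held a single block, against 13.6% of the other regions. A level of such a region thus describes a short stretch. Members were found on each of the 19 autosomes, from 1.53% of the regions on chromosome 1 to 3.72% of those on chromosome 15.

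The largest gain was at chr3:100845001-100847500, where 11 CpGs within 340 bp went from 30.2% to 93.4%, a gain of 63.2 points. Pooled over these CpGs, 64 of 138 calls were methylated in *Rex1*-high cells (95% Wilson interval 38.3% to 54.7%) and 91 of 98 in *Rex1*-low cells (86.0% to 96.5%). The pooled *Rex1*-high value lay above the mean over CpGs because the CpGs with the most calls were more methylated. The deepest CpG had 27 methylated of 29 calls, and the next deepest, with 21 to 26 calls, were at 42.3% to 47.6%. At the 10 CpGs other than the deepest, the *Rex1*-high level ran from 0% to 47.6%, and 6 of them had only 5 or 6 calls in each library. The second largest gain, 60.8 points, was at chr13:112340001-112342500, where 13 CpGs went from 30.3% to 91.1%. Its last 6 CpGs, within 27 bp, were between 8.33% and 18.3% methylated in *Rex1*-high cells at 17 to 33 calls, and between 88.9% and 100% in *Rex1*-low cells at 9 calls each.

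Next came chr2:23780001-23782500, from 23.1% to 81.7% over 10 CpGs, and chr11:19850001-19852500, from 31.2% to 87.4% over 15 CpGs. At chr6:8677501-8680000, 13 CpGs lay within 121 bp and went from 22.5% to 76.9%. The 4 CpGs at the right end of this stretch had 0 methylated of 5 calls each in *Rex1*-high cells and 11 or 12 of 13 in *Rex1*-low cells. CpGs a few bases apart are read on the same fragments, so that these 4 CpGs are not separate measurements. The sixth and seventh gains were at chr9:7300001-7302500, from 23.3% to 77.5%, and chr4:59732501-59735000, from 35.7% to 89.0%. The remaining 3 of the 10 largest were chr15:5112501-5115000, from 39.9% to 92.7%, chr11:30312501-30315000, from 40.3% to 92.8%, and chr14:46177501-46180000, from 29.1% to 81.6%. The region on chromosome 11 at 30312501 rested on more calls than its neighbours in this order, with 130 methylated of 320 (35.4% to 46.1%) and 195 of 212 (87.5% to 94.9%).

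**Figure D2:**
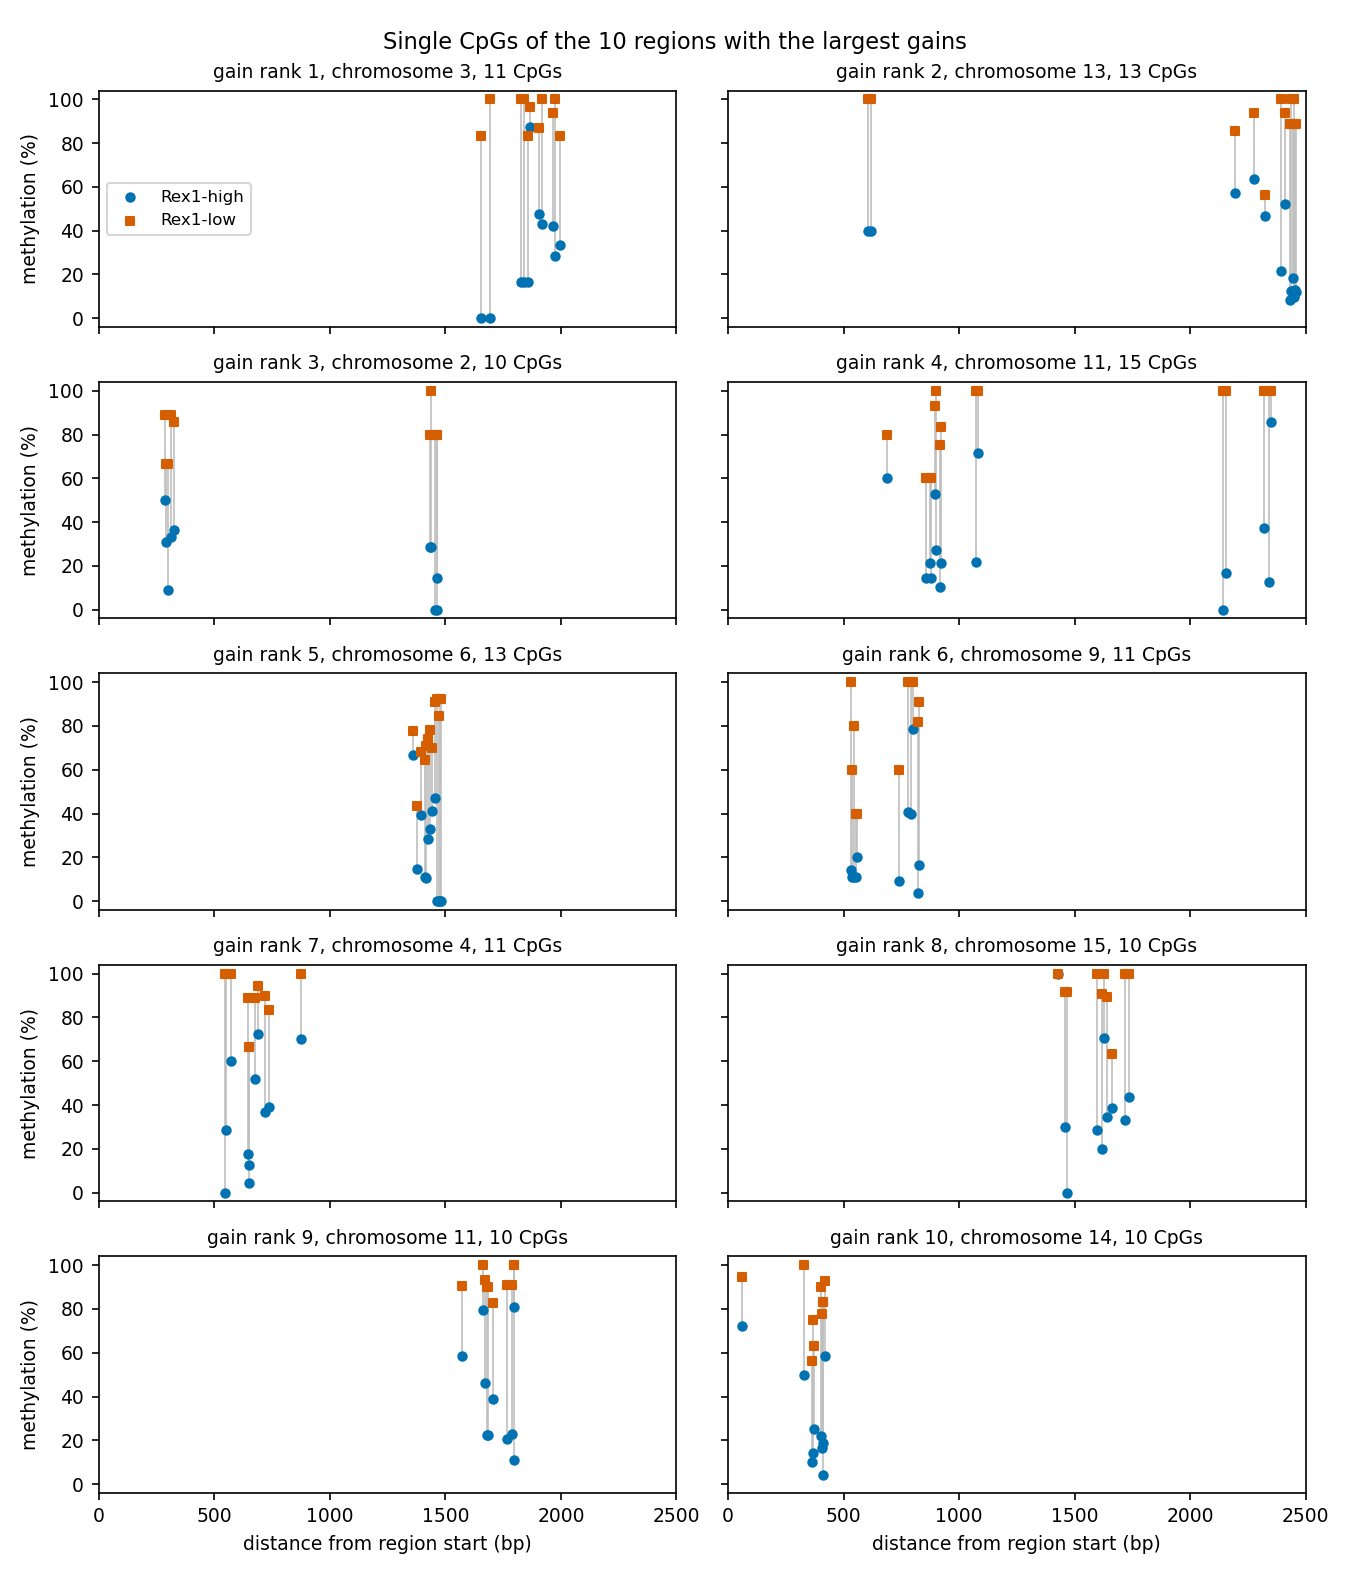
Methylation in percent of every shared CpG (vertical axis) of the 10 regions with the largest gains, by distance in bp from the start of the 2500 bp region (horizontal axis). Circles are the Rex1-high library, squares the Rex1-low library, and grey lines join both values of a CpG. Within each region the circles are widely spread, as from 0% to 87.5% at the largest gain, and the squares lie mostly near the top.

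The 10 regions shared a pattern at single CpGs. In the *Rex1*-high library, the lowest CpG of each region lay between 0% and 10.96% and the highest between 50% and 100%. Every CpG was higher in *Rex1*-low cells in all of them but the eighth, where a CpG was fully methylated in both libraries. The gain of single CpGs ran from 9.17 to 100 points at the largest gain and from 35.9 to 80 points at the third, so that the size of a gain differed widely within a region. These regions had 96 to 459 calls in *Rex1*-high cells and 68 to 315 in *Rex1*-low cells.

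The 8524 other regions at 30% to 60% in *Rex1*-high cells served as comparison regions. Their median *Rex1*-high level was 49.1%, with quartiles of 40.5% and 54.9%, against a median of 40.7% for the members. The starting levels were thus not matched. The median gain of the comparison regions was 27.3 points. Of the 5490 CpGs of the 449 regions, 5350 (97.4%) were higher in *Rex1*-low cells, 73 were lower and 67 were equal, and 3 were lower by 20 points or more. The direction was widely shared, since 88.1% of the CpGs of the comparison regions were higher in *Rex1*-low cells too. At 3180 CpGs (57.9%) the gain was itself 40 points or more, against 24.9% of the CpGs of the comparison regions. In all regions with 10 to 19 CpGs, this share was 18.7%. Every CpG was higher in *Rex1*-low cells in 323 of the 449 regions (71.9%) and in 30.7% of the comparison regions. Every CpG gained 20 points or more in 50 members (11.1%) and in 57 comparison regions (0.669%). The *Rex1*-high levels were spread, with 24.6% of CpGs under 20%, 29.9% from 20% to 40%, 20.6% from 40% to 60%, 19.8% from 60% to 80% and 5.08% at 80% or more. In the *Rex1*-low library, 66.2% of the same CpGs were at 80% or more and 18 CpGs (0.328%) were under 20%.

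**Figure D3:**
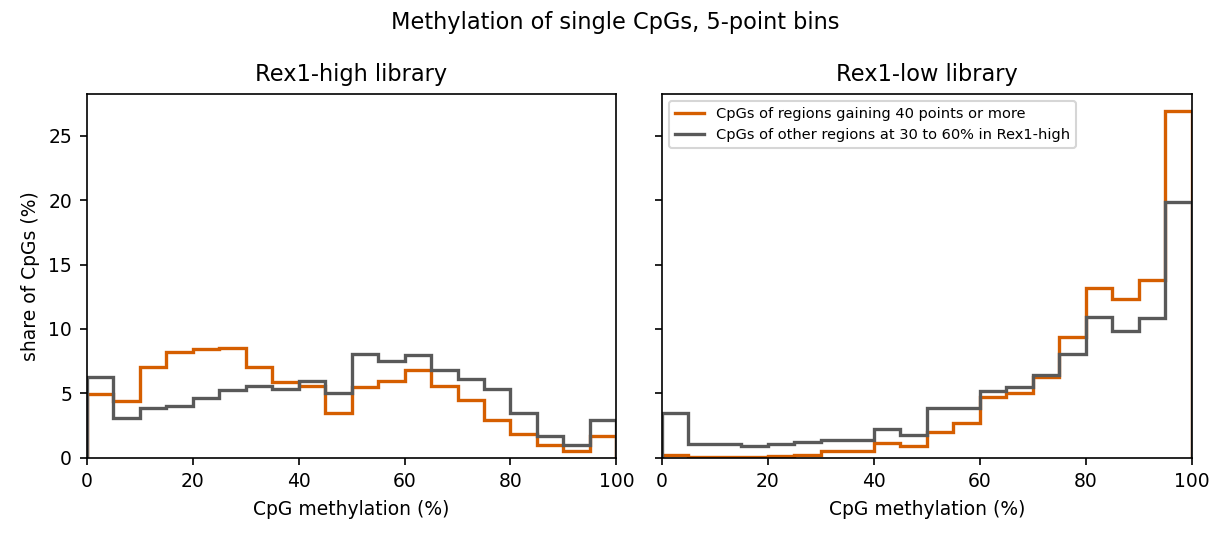
Share of CpGs in percent (vertical axis) by CpG methylation in 5-point bins (horizontal axis) in each library. Orange is the 5490 CpGs of the 449 regions, and grey is the 108304 CpGs of other regions at 30% to 60% in the Rex1-high library. The orange distribution is broad in the Rex1-high library and piled up at 80% or more in the Rex1-low library, where it nearly lacks the CpGs under 20% that the grey one retains.

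In the comparison regions, 6.59% of CpGs were under 20% in *Rex1*-low cells, and 33.3% of regions retained at least 1 such CpG, against 16 of the 449 regions (3.56%). The difference between these sets of regions was largest at CpGs that started low. CpGs under 20% in *Rex1*-high cells had a median *Rex1*-low level of 70.6% in the 449 regions and 35.4% in the comparison regions. CpGs from 20% to 40% had medians of 83.3% and 72.4%, and those from 60% to 80% had medians of 94.4% and 90.5%. Since the regions were selected on a sum of these changes, the selection itself favours the direction of each of these differences.

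Within a region, CpGs became more alike. The SD over CpGs of a region had a median of 23.5 points in *Rex1*-high cells and 12.8 points in *Rex1*-low cells, and it was smaller in *Rex1*-low cells in 94.0% of the 449 regions. In the comparison regions the medians were 24.0 and 18.6 points, with a smaller SD in 70.7% of them. Values near full methylation leave less room for spread. The least methylated CpG of each member, chosen on its *Rex1*-high value, had medians of 8.33% and 74.0% in the *Rex1*-high and *Rex1*-low libraries, and the most methylated CpG had medians of 78.6% and 95.8%. In the comparison regions these medians were 10.3% and 53.9% for the least methylated CpG and 85.8% and 95.7% for the most methylated.

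Where a member held several stretches of CpGs, the gain was rarely limited to a single stretch. Blocks were scored when they had at least 3 CpGs, and 263 of the 449 regions had at least 2 such blocks. Every scored block was higher in *Rex1*-low cells in each of the 263, every block gained 20 points or more in 250 (95.1%), and every block gained 40 points or more in 81 (30.8%). Of 5669 comparison regions with at least 2 such blocks, every block was higher in 5291, gained 20 points or more in 2958 (52.2%) and gained 40 points or more in 21 (0.370%). Block gains enter the mean that the regions were selected on, so that the higher counts in members follow in part from the selection. The blocks of a member differed by a median of 13.5 points. Neighbouring CpGs of members differed in gain by a median of 17.02 points when at most 50 bp apart and by 22.0 points when over 250 bp apart. The deposited values list most CpGs on a pair of lines. CpGs with a line at 80% or more beside a line at 20% or less made up 6.23% of members' CpGs in *Rex1*-high cells and 0.346% in *Rex1*-low cells. In the comparison regions these shares were 6.66% and 2.44%. When these CpGs were left out, 369 members still had 10 to 19 CpGs, and 358 of them still passed the threshold.

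The members were scattered along the genome. Of the 449 regions, 431 had no other member within 25 kb, and the median distance to the nearest member was 1295 kb. The share with another member within 25 kb was 4.01% (95% Wilson interval 2.55% to 6.25%), against 3.00% of the other regions with 10 to 19 CpGs that had a member within that distance. Within 100 kb the shares were 10.2% and 9.63%, and within 1000 kb they were 44.5% and 51.1%. At 10 kb the share was 2.90% (1.70% to 4.89%) for members, which rests on 13 members. It was 1.32% (1.15% to 1.501%) for the other regions and 1.54% for the other regions at 30% to 60% in *Rex1*-high cells. A member close to another makes that other close too. Members thus do not count independently here, and the intervals do not cover this.

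The 18 members with a close neighbour formed 7 clusters, of which 5 were pairs. The largest was on chromosome 2, where 5 members lay within 40 kb from the first start to the last, at chr2:165630001-165632500, chr2:165640001-165642500, chr2:165645001-165647500, chr2:165652501-165655000 and chr2:165670001-165672500. They gained 46.9, 42.0, 49.95, 43.0 and 40.5 points in this order, from *Rex1*-high levels of 33.6%, 36.3%, 27.8%, 32.3% and 50.2%. The third of them had 74 methylated of 310 calls (19.5% to 28.9%) in *Rex1*-high cells and 233 of 328 (65.9% to 75.7%) in *Rex1*-low cells. Between these members lay 8 other regions with at least 3 CpGs, and their gains ran from 13.7 to 43.4 points with a median of 30.2. The smallest was directly beside the first member, where 12 CpGs went from 14.1% to 27.9%. In the 21 regions outside the cluster but within 50 kb, the median gain was 17.2 points and the largest was 32.7 points, and 3 of them were lower in *Rex1*-low cells.

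The second cluster was an unbroken run of 3 regions, chr5:123602501-123605000, chr5:123605001-123607500 and chr5:123607501-123610000. The first went from 39.5% to 86.5%, and the others from 19.6% to 65.2% and from 20.8% to 65.7%. The latter pair started near 20% and ended at an intermediate level. Their calls were comparatively deep, with 134 methylated of 644 (17.8% to 24.1%) and 361 of 568 (59.5% to 67.4%) in the second and 90 of 400 and 213 of 313 in the third. All 43 CpGs of the 3 regions were higher in *Rex1*-low cells. From 15 to 10 kb before this run lay 3 CpG-dense regions with 48 to 67 CpGs, at 13.95% to 19.4% in *Rex1*-high cells and 14.9% to 19.8% in *Rex1*-low cells. The region 7.5 kb before the run, with 7 CpGs and so too few to be a member, went from 35.7% to 90.3%. These 3 regions held the 2 pairs of directly adjacent members in the data, among 1394 adjacent pairs in which both regions had 10 to 19 CpGs.

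**Figure D4:**
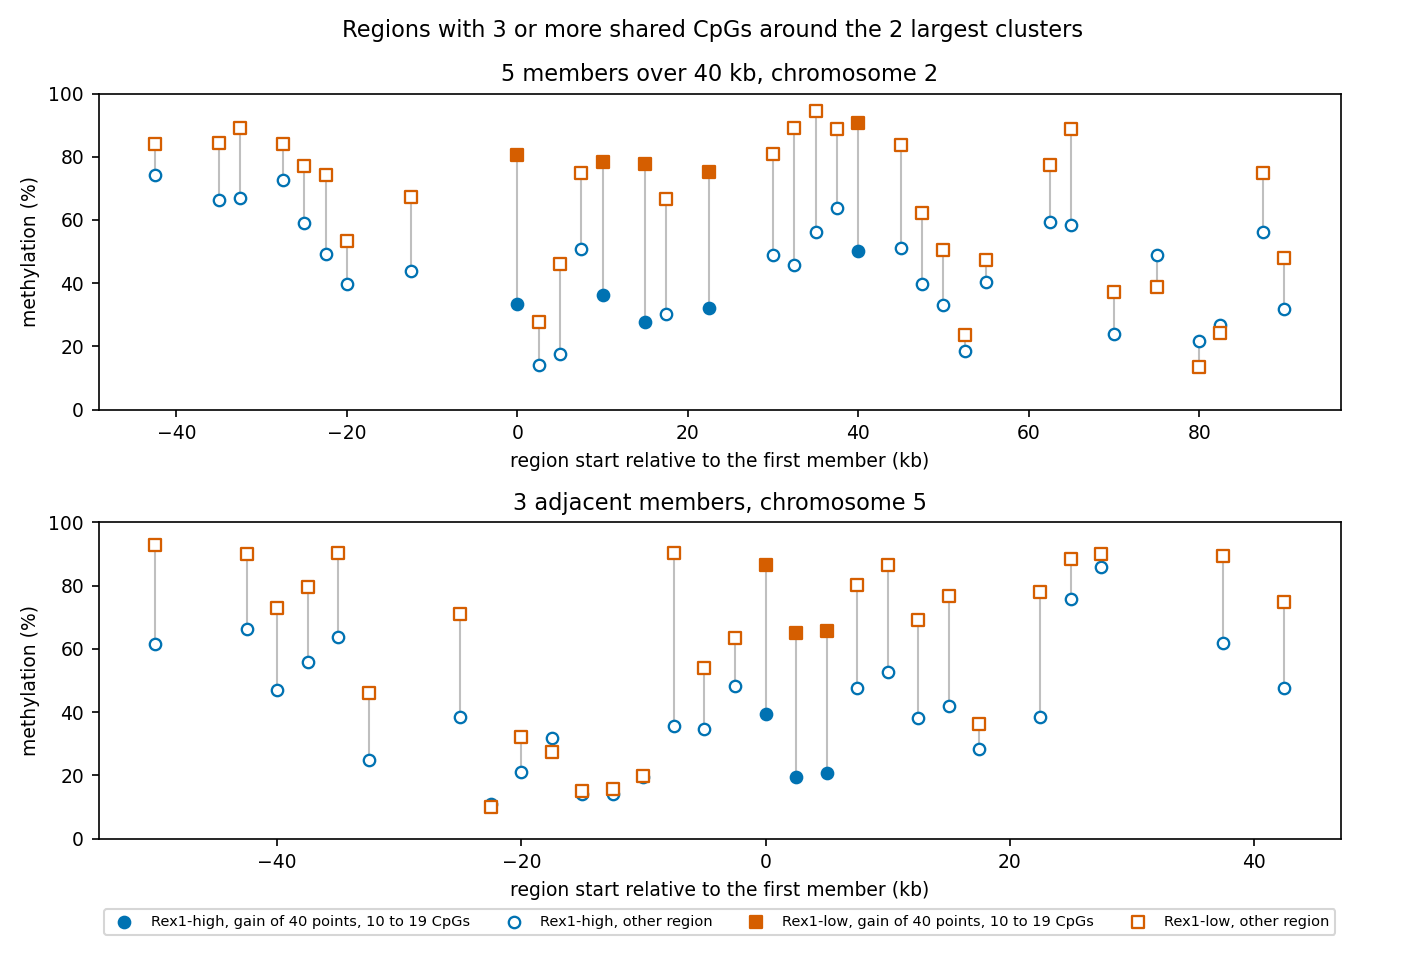
Methylation in percent (vertical axis) of regions with at least 3 shared CpGs around the 2 largest clusters, by the distance in kb of the region start from the first member (horizontal axis). Filled symbols are members and open symbols other regions, with circles for the Rex1-high and squares for the Rex1-low library. On chromosome 2 the 5 members are interspersed with regions of smaller gain, and on chromosome 5 the 3 members adjoin each other, 10 kb beyond dense regions that are low in both libraries.

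The remaining clusters were pairs, taken in the order of their larger gain. The third cluster, at chr19:42370001-42372500 and chr19:42375001-42377500, gained 49.9 and 40.8 points around a region that gained 23.6 points. In the fourth, chr6:82675001-82677500 and chr6:82685001-82687500 gained 44.8 and 48.2 points, and the 3 regions between them gained 34.1 to 41.5 points. The fifth was looser, with chr7:134527501-134530000 and chr7:134547501-134550000 at 48.0 and 40.2 points and 3 regions between them at 3.93 to 30.7 points. The other two pairs, chr10:6065001-6067500 with chr10:6070001-6072500 and chr2:158682501-158685000 with chr2:158695001-158697500, gained 43.9 to 45.4 points. Gains inside a cluster thus ranged from nearly continuous to interrupted.

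Gains in the regions directly beside a member were much smaller than in the member. The 354 adjacent regions that were not members and had at least 3 CpGs gained a median of 25.04 points, with quartiles of 16.5 and 32.5, from a median *Rex1*-high level of 51.7%. Regions adjacent to the comparison regions gained a median of 22.7 points, from 52.9%. Of the 354, 28 (7.91%) gained 40 points or more, against 4.44% of the regions beside the comparison regions. Beside all other regions with 10 to 19 CpGs, the share was 3.94%. It did not fall steadily with distance around members, at 3.87% at 5 kb, 7.60% at 7.5 kb and 6.09% at 10 kb. Around the comparison regions the shares at these distances were 4.13%, 4.50% and 3.70%. From 5 to 25 kb away, the median gain around members was between 21.6 and 24.6 points, and around the comparison regions it was between 22.2 and 22.7 points. Of the 94 members with a measured region on both sides, 86 gained more than either of them, and the members exceeded the mean of both sides by a median of 18.9 points. Of 2015 comparison regions measured on both sides, 846 gained more than either, and the median excess was 3.83 points. The members were selected for their gain. The regions beside them were not, except in the run of 3 adjacent members on chromosome 5, so that this excess is a description. For 183 members neither adjacent region was measured at 3 CpGs.

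**Figure D5:**
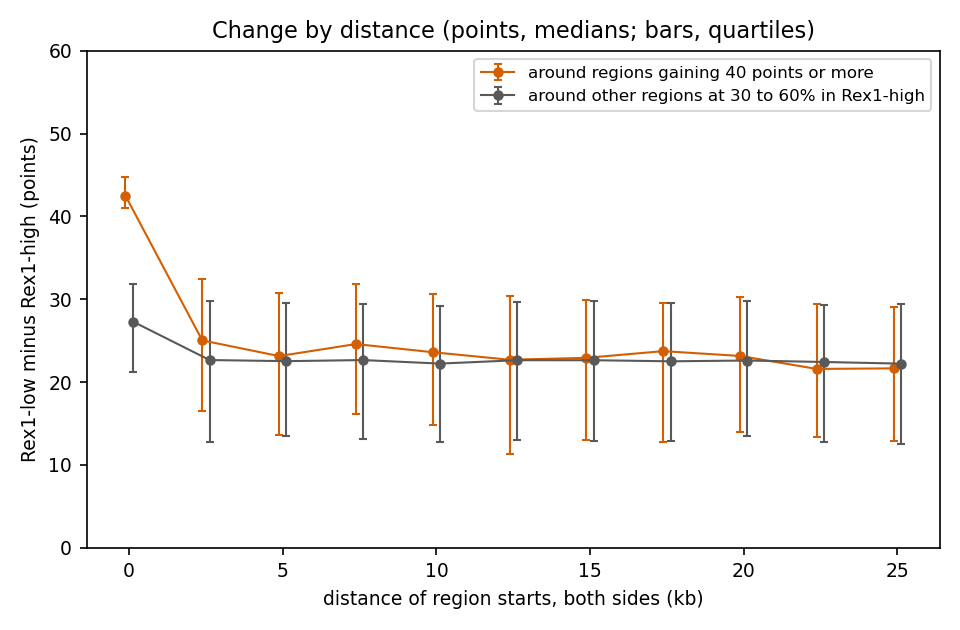
Difference between the Rex1-low and Rex1-high library in points (vertical axis) by distance between region starts in kb (horizontal axis), for regions around the 449 members (orange) and around other regions at 30% to 60% in the Rex1-high library (grey). Dots are medians and bars are quartiles, with the selected regions themselves at 0 kb. The median falls from 42.5 points at the member to 25.04 points in the adjacent region and stays between 21.6 and 24.6 points beyond it.

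The gain of an adjacent region differed with its CpG number. Beside members, the 255 adjacent regions with 3 to 9 CpGs gained a median of 26.3 points, the 63 with 10 to 19 CpGs gained 25.03 points, and the 36 with 20 or more CpGs went from 16.9% to 19.3%, with a median gain of 4.12 points. Beside the comparison regions, the median gains at these CpG numbers were close to these, at 24.4, 23.7 and 3.45 points. Dense regions were 10.2% of the regions beside members, 14.9% of those beside the comparison regions and 17.9% of those beside all other regions with 10 to 19 CpGs. At the scale of single CpGs outside the members, the mean gain was 33.5 points within 100 bp of a member's outermost measured CpG (85 CpGs), 28.5 points from 100 to 249 bp, 27.8 points from 250 to 499 bp and 25.5 points from 500 to 999 bp. It was 17.4 points from 1000 to 2499 bp and 13.8 points from 2500 to 4999 bp. Around the comparison regions, the means at these distances were 15.6, 12.4, 9.06, 11.5, 13.2 and 12.5 points. These means over single CpGs were not matched for the CpG number of the surrounding sequence.

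Calls that the selection had not used gave a smaller difference. In 273 of the 449 regions, 790 further CpGs were listed in both libraries but lacked a line of 5 calls in at least 1 of them. Pooled over these CpGs, 2908 of 6172 calls were methylated in *Rex1*-high cells (47.1%, 95% Wilson interval 45.9% to 48.4%) and 3316 of 4325 in *Rex1*-low cells (76.7%, 75.4% to 77.9%). The difference was 29.6 points, with a counting interval of 27.8 to 31.3, and it was 25.2 points as an unweighted mean over the CpGs. At such CpGs of the comparison regions the pooled difference was 18.1 points and the mean over CpGs was 20.9 points. In the 39 members with at least 20 of these calls in each library, 37 were higher in *Rex1*-low cells and 9 (23.1%) gained 40 points or more. Of 1036 comparison regions with as many such calls, 912 were higher and 161 (15.5%) gained 40 points or more. These calls come from the same libraries and partly from the same fragments, so that they are no replicate.

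Which regions passed depended on how a level was formed. With calls pooled over a region in place of the mean over its CpGs, 339 regions gained 40 points or more, and 227 of them were among the 449. With the lines of a CpG summed before the minimum of 5 calls, 386 passed, of which 251 were among the 449. With at least 10 calls per line, 153 of the 449 regions still had 10 to 19 CpGs, and 104 of these passed.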

How the data were processed

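The authors processed the RRBS reads with Bismark and Galaxy, and the submitters' processing notes name Bismark 0.7 and mm9. Trimming and strand handling are not given in the sources used here. The authors' deposited values are, for each line, a pair of methylated and all calls and a score that rescales their ratio to at most 1000, which was not used. A CpG had 1 or 2 lines, and lines with a single call were included. Lines with at least 5 calls were kept, the fractions of a CpG's lines were averaged, and CpGs kept in both libraries were assigned to 2500 bp regions by position. The regions and comparison classes were chosen with earlier results of these data known. Individually described regions were the 10 largest gains, 3 on each side of the threshold and clusters in order of member number and, for ties, of their larger gain, where a cluster joins members whose starts lie at most 25 kb apart. Depth is given as calls, with 95% Wilson intervals, and score-based intervals for differences of pooled shares. No test was run across regions. Results were recomputed under 15 alternatives. The software was matplotlib 3.10.9, SciPy 1.17.1, pandas 2.3.3 and NumPy 2.4.6 under Python 3.11.15.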

Additional observations from a re-analysis of the deposited data

How the results depend on the processing

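Of 81 values recomputed for 7 results under 15 alternatives, 61 stayed within their limits, 20 moved and none reversed. A move means a factor over 1.5 for the number of members, and otherwise a value outside the error of the reported value. The number of members was 290 with at least 10 calls per line (2.68% of the 10824 regions then eligible, against 2.65%), 1793 with the median over CpGs, 3761 at a gain of 30 points and 17 at 50 points. With the median over CpGs 399 of the 449 regions remained. With the deeper library thinned at each CpG, 557 regions passed (3.29%, against 2.65%), and 360 of them were among the 449. The median *Rex1*-high level was 48.8% at 30 points and 31.2% at 50 points. The share of members' CpGs gaining 40 points or more was 59.3% with 10 calls per line, 56.6% with 3, 44.2% with the median, 40.03% at 30 points and 73.5% at 50 points. The share of members within 25 kb of another was 12.995% with the median, 6.57% without CpGs of unlike lines, 25.1% at 30 points and 0% of the 17 regions at 50 points, which allows up to 18.4%, and within 100 kb it was 10.2%. Within 100 kb the share for the other regions with 10 to 19 CpGs was 9.63%. The remaining shares were not computed for the other regions, and the number of members differed between their settings. The pooled difference at CpGs under the call minimum was 32.4 points with 10 calls per line, 26.2 with the median, 26.9 at 30 points and 22.9 at 50 points. The cause of these shifts was not tested. With 1 library per state, differences between the libraries and between the states cannot be told apart.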

Other observations

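Chromosome X was outside the selection. Of its 361 regions with 10 to 19 CpGs, 9 (2.49%) were at least 40 points more methylated in the *Rex1*-low library, a share within the range of the autosomes. On the autosomes, gains of this size were more frequent in sparser regions, at 8.33% of the 73293 regions with 3 or 4 CpGs and 5.56% of the 53974 regions with 5 to 9, where fewer CpGs are averaged. They were rare in denser regions, at 33 of 7226 regions with 20 to 39 CpGs and 2 of 7241 with 40 or more.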
